A study of Mus musculus with 6 samples.

Results

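Motile cilia and ependymal genes were compared in dorsal striatum between mice with a Lrrk2 knock-in allele and wild-type mice. The set holds every gene of the deposited table whose symbol begins with Dnah, Dnaic, Cfap, Rsph, Drc or Tekt followed by a digit, together with 8 genes given by name, Foxj1, Ak7, Fam183b, Ccdc153, Tmem212, Dynlrb2, Ccdc39 and Ccdc40. These rules matched 65 of the 23067 genes in the table, and 48 of them, whose level averaged 0.3 FPKM or more across the 6 libraries, are described. FPKM divides the fragments of a gene by its transcript length and by the size of the library, so that levels of different genes can be set side by side. The threshold uses the mean of both genotypes, and the set was drawn up with an earlier result known, in which ciliary genes were lower in knock-in striatum. The group values below are therefore a description of these members, and none of the counts over them is offered as support.

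The knock-in group had 3 samples of genotype Lrrk2 G2019S/G2019S, homozygous for a kinase change linked to familial Parkinson's disease, and the wild-type group had 3 samples of genotype Lrrk2 WT/WT. All 6 were titled male and were taken at postnatal day 21, and 1 RNA sequencing library was made from each. The labels do not say whether each sample is a different animal, and the p-values therefore reflect only how far these samples vary, part of which may be technical.

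Motile cilia beat by means of an axoneme, a ring of doublet microtubules on which dynein arms walk, with radial spokes, nexin links and a central pair that control the stroke. In the brain they stand in tufts on ependymal cells, which line the ventricles, among them the lateral ventricle beside the striatum, and stir the cerebrospinal fluid. Epithelial cells of the choroid plexus carry motile cilia too. The transcription factor Foxj1, working with factors of the RFX family, switches on the genes of the axoneme.

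Several libraries stood apart before any ciliary gene was considered. Slc17a7, which loads glutamate into synaptic vesicles of cortical cells, stood at 29.9, 25.2 and 3.41 FPKM in knock-in replicates 1 to 3 and at 10.95, 3.55 and 2.73 FPKM in wild-type replicates 1 to 3. Ttr, the transthyretin of the choroid plexus, was at 10.9, 13.5 and 2.12 FPKM in knock-in libraries and at 16.2, 374 and 11.8 FPKM in wild-type libraries. The cortical marker was thus highest in knock-in replicates 1 and 2, and the plexus marker in wild-type replicate 2. The share of mitochondrial genes in the FPKM sum was 23.2% for knock-in replicate 3 and 18% to 20.5% for the other 5 libraries. Xist, the RNA of the inactive X chromosome of female cells, stood at 27.25 to 39.3 FPKM in knock-in and 31.4 to 33.0 FPKM in wild-type libraries, although the titles give males. Lrrk2 itself was at 11.9 ± 0.579 FPKM in knock-in and 11.3 ± 0.625 FPKM in wild-type libraries (SD, n = 3 each), a level that does not check a point change. The tissue matched its label, since Ppp1r1b, the DARPP-32 gene of striatal projection neurons, was at 750 to 780 FPKM in knock-in and 760 to 835 FPKM in wild-type libraries.

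The members were low by comparison, at a mean of 0.3001 to 25.01 FPKM, and as a group they were lower in knock-in striatum. The mean level was lower in knock-in libraries for 47 of 48 members, Tekt5 being the exception, with a median ratio of 0.745 between the group means, and 56.9% of the 17904 genes tested had a difference in that direction. All 3 knock-in libraries lay below all 3 wild-type libraries for 28 members, which is 58.3% of them, and 0 members were separated the other way. Among all genes tested 7.21% were separated with knock-in lower and 3.07% with knock-in higher. Among genes of 0.3 to 1 FPKM, the range of 22 of the members, 9.58% were separated with knock-in lower and 58.7% had a lower knock-in mean on the log2 scale. Of the 22 members in that range, 18 were separated and 22 were lower. Of the 26 members at 1 FPKM or more, 10 were separated, beside 6.58% of all genes at that level. The number of ciliated cells in a sample, which includes how much ventricular wall was taken, and the RNA per cell cannot be told apart in bulk tissue.

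No single member passed the test. Levels were compared as log2(FPKM + 1) by limma with a trended prior variance, fitted over the 17904 genes that average 0.3 FPKM or more, and a gene was called at a Benjamini-Hochberg adjusted p under 0.05. That model called 0 of 48 members, against 4 of all genes, which is 0.0223%. At an unadjusted p under 0.05 in limma, 21 members were lower and 0 were higher, beside 3.38% and 1.39% of all genes tested. The adjusted p-values of the members in limma lay between 0.388 and 0.999. The added 1 FPKM compresses the difference of genes at low levels, so that the median log2 difference of members was -0.17, against a median of -0.015 over all genes tested.

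**Figure D1:**
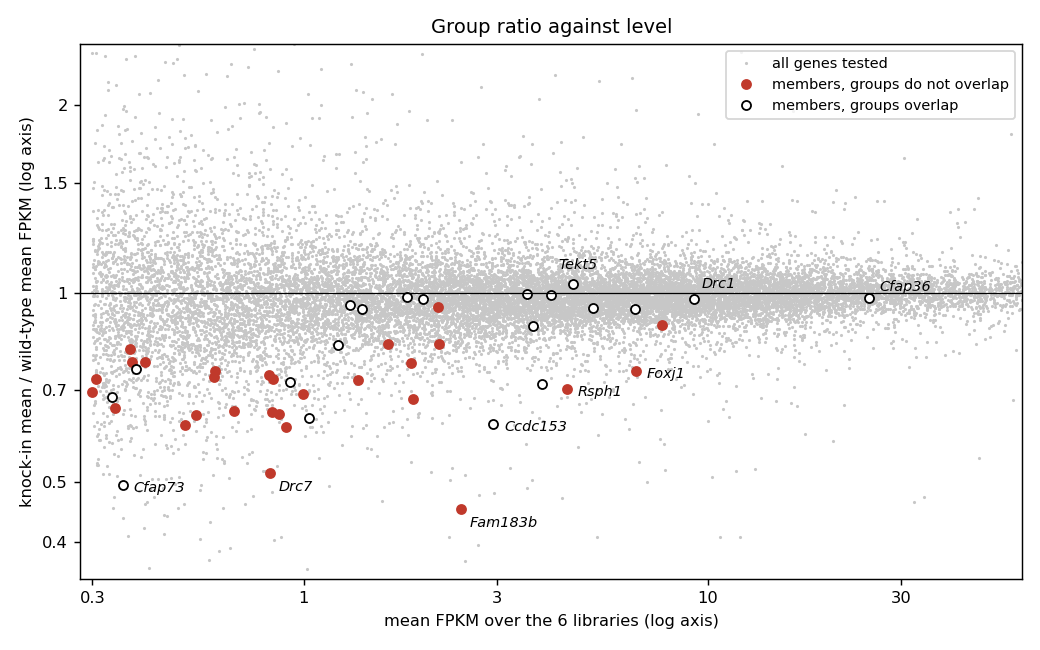
Ratio of the knock-in mean to the wild-type mean FPKM (vertical log axis) against the mean FPKM over the 6 libraries (horizontal log axis). Grey points are the genes tested, of which 727 lie outside the drawn range, filled circles are the 28 members whose groups do not overlap and open circles are the other 20; filled circles crowd below 3 FPKM, and most members at a higher level lie near a ratio of 1.

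The difference was spread unevenly over levels. The 36 members with a mean under 3 FPKM were all lower in knock-in libraries in the deposited scaling, though Ccdc39 and Drc3 were not with quantile normalization nor Drc3 with median-of-ratios scaling, with a median ratio of 0.729, and 25 of them did not overlap between groups. The 12 members at 3 FPKM or more had a median ratio of 0.945, and 3 of them, Cfap20, Foxj1 and Rsph1, did not overlap. For 5 members, Dnah6, Dnah10, Cfap57, Cfap70 and Cfap73, the knock-in mean was under 0.3 FPKM while the wild-type mean was above it. The threshold was thus met through the wild-type libraries, and 3 of the 5 did not overlap. Without these 5, the knock-in mean was lower for 42 of 43 members, 25 did not overlap, and the median ratio was 0.757. Over all genes tested 56.9% were lower and 7.21% were separated with knock-in lower.

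The 3 knock-in libraries did not take part alike. Each member was divided by its own mean over the 6 libraries, and the median of that ratio over the 48 members was 0.842, 0.925 and 0.833 in knock-in replicates 1 to 3 and 1.14, 1.05 and 1.15 in wild-type replicates 1 to 3. Knock-in replicate 2 was thus closest to the wild-type libraries, and wild-type replicate 2 lowest among its group. The lowest of the 6 levels was found in knock-in replicate 3 for 20 members, in knock-in replicate 1 for 16 and in knock-in replicate 2 for 8, against 0 to 2 members in a wild-type library. Wild-type replicate 2, where plexus markers were highest, had the lowest median of the wild-type libraries. With the mean of the cortical markers as a covariate the median log2 difference of members was -0.16, and 43 of 48 were lower. In that fit 60.7% of all genes tested were lower and 6.19% lower at an unadjusted p under 0.05 in limma, against 56.9% and 3.38% without it. The cortical markers were highest in knock-in replicates 1 and 2, so the covariate cannot be fully separated from genotype in 6 libraries.

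**Figure D2:**
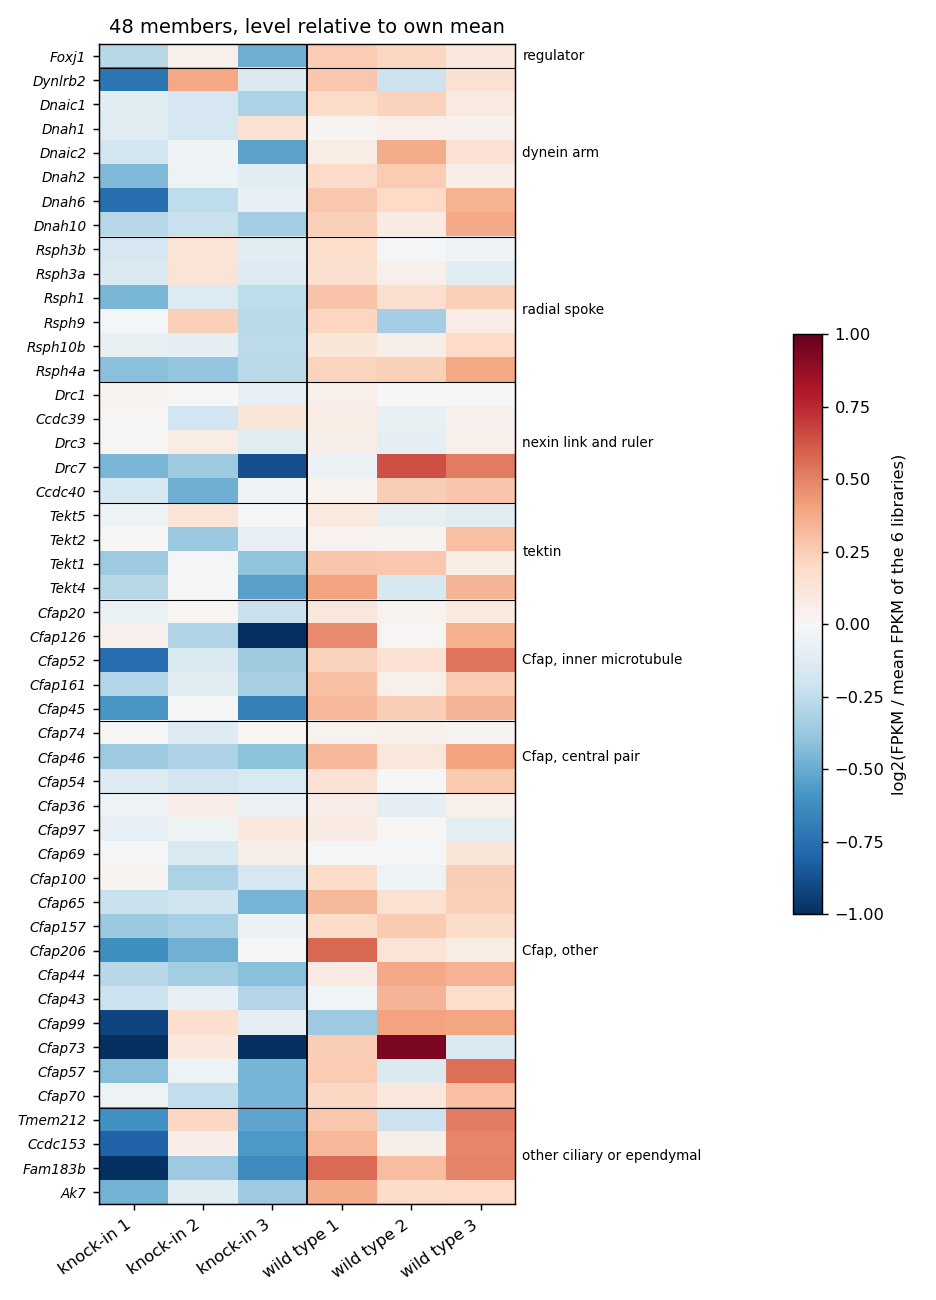
Level of each of the 48 members (rows, grouped by role) in each library (columns, knock-in left and wild type right), coloured by log2 of the FPKM over the member's own mean of the 6 libraries, with the colour limited to -1 and 1. Blue prevails in the knock-in columns, most in replicates 1 and 3, and red in the wild-type columns, while rows such as Drc1, Cfap36 and Cfap97 are nearly white throughout.

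Foxj1 was the member that stands at the head of the programme. Its level was 5.49, 6.90 and 4.73 FPKM in knock-in replicates 1 to 3 and 7.93, 7.69 and 7.14 FPKM in wild-type replicates 1 to 3. Every knock-in library was below every wild-type library, with knock-in replicate 2 close under them. The ratio of means was 0.753 and the log2 difference was -0.37 (SE 0.12, 95% interval -0.64 to -0.10, limma adjusted p = 0.997). Foxj1 lies on chromosome 11 at 116330704 to 116335399 (GRCm38, GENCODE release M21), with 1 annotated transcript and 0 exon bases shared with another gene.

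Foxj1's partners were compared from a list of 25 regulators of multiciliated cell formation, of which 19 reached 0.3 FPKM. The knock-in mean was lower for 12 of the 19, beside 56.9% of all genes tested, 0 were called, and the median ratio was 0.981. Rfx2, an RFX factor of ciliogenesis, was at 1.66, 1.63 and 1.73 FPKM in knock-in and 2.02, 2.07 and 1.77 FPKM in wild-type libraries. Ccdc78, which takes part in building many centrioles in 1 cell, was at 0.521, 0.490 and 0.562 FPKM in knock-in and 0.792, 0.801 and 0.688 FPKM in wild-type libraries. Neither overlapped between groups, while the other 17 did, and 7.21% of all genes tested were separated with knock-in lower. The RFX factors Rfx1, Rfx3, Rfx4, Rfx5 and Rfx7 overlapped, at ratios of 1.01, 0.951, 0.982, 0.981 and 0.981. The broadly used cell cycle factor E2f4, which also serves in centriole amplification, was at 13.02 ± 0.277 FPKM in knock-in and 13.01 ± 0.322 FPKM in wild-type libraries (SD, n = 3 each).

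Promoters of the members were then searched for the letters that these factors are known to bind, since the RFX family recognises the X-box, an imperfect inverted repeat built from letters such as GTTGCC, and forkhead proteins recognise GTAAACA. RefSeq promoters on GRCm38.p6, from 250 bases before to 50 bases after a start, were at hand for 39 of the 48 members, with 45 promoters in all. There was no entry for Cfap157, Cfap54, Cfap65, Cfap73, Cfap97, Foxj1, Rsph1, Rsph10b and Rsph4a. On either strand, GTTGCC was found in 18 of 45 member promoters (40%) and in 12.5% of all 32851 promoters. GTTGCTAGG was found in 9 of 45 member promoters (20%) and in 0.804% of all promoters. The forkhead letters GTAAACA were found in 3 of 45 (6.67%) and in 3.65% of all promoters. In a palindromic X-box GTTGCTAGG and GTTGCC can overlap on opposite strands. In all, 12 patterns were counted, and the choice of these 3 was made after the counts were seen. The other 9 included an X-box with both arms in a strict form, found in 0 of 45 member promoters and 0.298% of all, a looser form with both arms, found in 4 of 45 (8.89%) and 1.33% of all, and the forkhead core TAAACA, found in 13.3% and 13.4%.

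GTTGCC was present in 10 of the 21 members with a promoter whose groups did not overlap and in 6 of the 18 that overlapped, and GTTGCTAGG in 2 of 21 and 7 of 18, and these differences were not tested. The promoters below show both kinds. Fam183b at chr11:58801911-58802210 (minus strand), Dnaic2 at chr11:114727169-114727468 (plus strand), Cfap44 at chr16:44394549-44394848 (plus strand) and Ak7 at chr12:105705732-105706031 (plus strand) did not overlap between groups. Drc1 at chr5:30281143-30281442 (plus strand) and Dynlrb2 at chr8:116504765-116505064 (plus strand) overlapped. Each is printed 5′ to 3′ along the gene, with capitals for GTTGCC, GTTGCTAGG or GTAAACA on either strand, and the examples were chosen after the levels were seen.
Fam183b: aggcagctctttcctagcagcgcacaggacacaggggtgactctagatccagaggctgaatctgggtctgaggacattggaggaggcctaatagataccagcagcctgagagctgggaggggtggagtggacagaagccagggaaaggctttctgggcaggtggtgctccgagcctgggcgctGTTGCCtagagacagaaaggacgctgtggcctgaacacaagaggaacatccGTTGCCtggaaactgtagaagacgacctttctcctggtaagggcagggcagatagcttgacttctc
Dnaic2: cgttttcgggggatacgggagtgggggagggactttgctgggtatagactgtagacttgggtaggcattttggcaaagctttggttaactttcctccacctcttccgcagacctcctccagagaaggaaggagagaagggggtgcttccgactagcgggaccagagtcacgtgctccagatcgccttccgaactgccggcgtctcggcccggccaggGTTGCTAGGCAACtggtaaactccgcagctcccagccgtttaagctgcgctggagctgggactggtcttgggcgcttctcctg
Cfap44: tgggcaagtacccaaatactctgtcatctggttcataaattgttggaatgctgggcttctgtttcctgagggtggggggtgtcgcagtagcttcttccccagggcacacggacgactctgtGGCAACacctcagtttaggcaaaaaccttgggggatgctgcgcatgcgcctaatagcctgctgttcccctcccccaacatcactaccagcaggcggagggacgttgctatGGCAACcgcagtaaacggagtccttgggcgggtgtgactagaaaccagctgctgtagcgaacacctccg
Ak7: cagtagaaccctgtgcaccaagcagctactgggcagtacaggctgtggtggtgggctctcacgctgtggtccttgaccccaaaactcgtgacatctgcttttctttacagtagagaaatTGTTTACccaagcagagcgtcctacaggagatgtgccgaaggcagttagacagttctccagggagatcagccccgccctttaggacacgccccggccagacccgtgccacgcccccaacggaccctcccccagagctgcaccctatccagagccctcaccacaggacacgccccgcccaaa
Drc1: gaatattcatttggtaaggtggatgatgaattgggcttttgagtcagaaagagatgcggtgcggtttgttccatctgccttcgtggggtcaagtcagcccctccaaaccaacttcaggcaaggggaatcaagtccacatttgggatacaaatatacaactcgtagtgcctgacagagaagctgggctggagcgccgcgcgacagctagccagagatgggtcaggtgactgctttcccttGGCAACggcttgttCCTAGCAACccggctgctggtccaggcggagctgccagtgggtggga
Dynlrb2: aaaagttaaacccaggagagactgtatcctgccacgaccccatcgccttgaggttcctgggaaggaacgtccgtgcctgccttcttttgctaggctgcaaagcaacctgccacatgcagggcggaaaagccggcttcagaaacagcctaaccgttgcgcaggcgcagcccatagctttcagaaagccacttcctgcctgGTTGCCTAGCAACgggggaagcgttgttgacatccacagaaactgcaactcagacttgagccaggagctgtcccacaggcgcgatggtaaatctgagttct
In these windows Fam183b holds GTTGCC in 2 places, and Dnaic2, Drc1 and Dynlrb2 hold GTTGCTAGG. A match describes the letters and is not evidence of a bound factor.

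The dynein arms, the motors of the axoneme, were represented by 4 heavy chains, 2 intermediate chains and the light chain Dynlrb2. Dnaic1 and Dnaic2, intermediate chains of the outer arm, did not overlap between groups. Dnaic1 was at 1.70, 1.63 and 1.47 FPKM in knock-in libraries and at 2.10, 2.15 and 1.96 FPKM in wild-type libraries, a ratio of 0.774 (log2 difference -0.24, SE 0.07, limma adjusted p = 0.977). Dnaic2 was at 0.726, 0.802 and 0.569 FPKM in knock-in libraries and at 0.867, 1.06 and 0.908 FPKM in wild-type libraries, a ratio of 0.739. The heavy chains are the ATPases themselves, and those of the inner arms, Dnah1, Dnah2, Dnah6 and Dnah10, were the ones above the threshold. Dnah6 was at 0.203, 0.286 and 0.324 FPKM in knock-in and 0.412, 0.392 and 0.435 FPKM in wild-type libraries. Dnah1, the heavy chain with the highest level, was at 1.28, 1.24 and 1.54 FPKM in knock-in and 1.42, 1.44 and 1.44 FPKM in wild-type libraries, so that its groups overlapped through knock-in replicate 3. Dynlrb2, a roadblock light chain of which cytoplasmic dynein also makes use, ranged from 2.24 to 4.84 FPKM in knock-in and from 3.20 to 4.46 FPKM in wild-type libraries, with its highest level in knock-in replicate 2.

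Axonemal dynein genes outside these families followed a list of 22 further subunits and docking proteins, 19 of which reached 0.3 FPKM. The knock-in mean was lower for 14, 7 did not overlap between groups with knock-in lower and 0 the other way, beside 7.21% and 3.07% of all genes tested, and 0 were called. Dnali1, a light intermediate chain of the inner arm, was at 1.11, 1.22 and 1.05 FPKM in knock-in and 2.12, 1.58 and 2.02 FPKM in wild-type libraries, a ratio of 0.592 (limma adjusted p = 0.757). Wdr63, an inner arm intermediate chain, was at 0.185, 0.359 and 0.222 FPKM in knock-in and 0.490, 0.579 and 0.516 FPKM in wild-type libraries. The light chain gene Dynlrb1, which cytoplasmic dynein uses in all cells, was at 68.7 to 113 FPKM in knock-in and 71.5 to 82.5 FPKM in wild-type libraries, overlapping with a higher knock-in mean. Of 16 measured factors of dynein arm assembly the knock-in mean was lower for 13, and 1 did not overlap, the F-box gene Fbxo36, whose place in that list is uncertain. The median ratio of the assembly factors was 0.960.

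Radial spokes, which carry signals from the central pair to the arms, had 3 members with no overlap between groups and 3 that overlapped. Rsph1, of the spoke head, was at 3.26, 4.08 and 3.76 FPKM in knock-in libraries and at 5.47, 5.02 and 5.29 FPKM in wild-type libraries. The highest knock-in level was well under the lowest wild-type level, and the ratio was 0.703 (log2 difference -0.42, SE 0.08, 95% interval -0.60 to -0.23, limma adjusted p = 0.675). Rsph4a, another head protein, was at 0.650, 0.666 and 0.720 FPKM in knock-in and 1.02, 1.02 and 1.14 FPKM in wild-type libraries, a ratio of 0.641 (limma adjusted p = 0.777). Its group means were 0.679 ± 0.0368 FPKM in knock-in and 1.06 ± 0.0679 FPKM in wild-type libraries (SD, n = 3 each). Rsph10b, at 1.96 ± 0.134 FPKM in knock-in and 2.36 ± 0.111 FPKM in wild-type libraries, did not overlap either, but it shares 410 exon bases with other genes on its own strand, Pms2 and Gm42421.

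Rsph3a and Rsph3b, near-identical copies of a spoke stalk gene, were at 5.06 ± 0.585 and 6.40 ± 0.711 FPKM in knock-in libraries and at 5.34 ± 0.490 and 6.79 ± 0.562 FPKM in wild-type libraries (SD, n = 3 each). Both overlapped between groups, and reads may be split between the copies. Rsph9, a head protein named here after its values were seen, was at 3.52, 4.20 and 2.95 FPKM in knock-in and 4.13, 2.82 and 3.75 FPKM in wild-type libraries, a ratio of 0.998. It thus differed less between the means than any other member, although its partner in the spoke head, Rsph4a, was among those with no overlap.

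**Figure D3:**
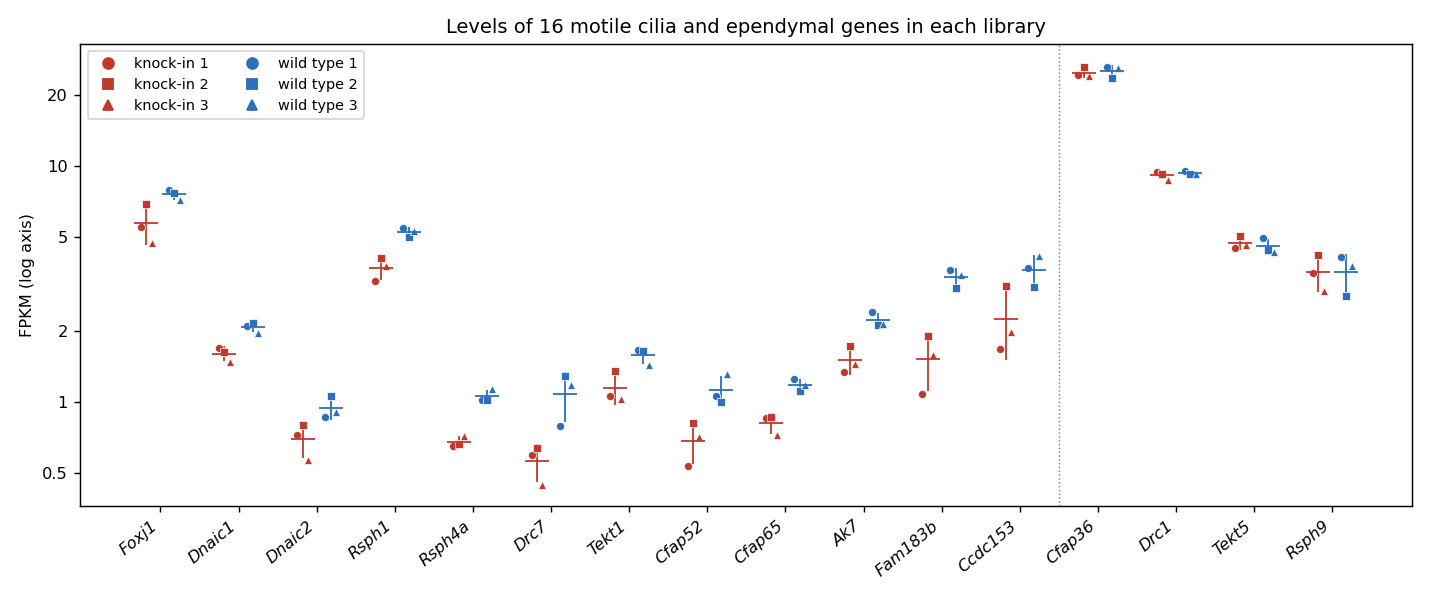
FPKM (vertical log axis) of 16 members in each library, knock-in left and wild type right for each gene, with a marker per library, a bar at the group mean and a line of 1 SD either side (n = 3 each). Of the 12 genes left of the dotted line only Ccdc153 overlaps between groups, and the 4 right of it, Cfap36, Drc1, Tekt5 and Rsph9, overlap.

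The nexin links and the ruler that spaces the repeats of the axoneme had 3 members near a ratio of 1, Drc1, Drc3 and Ccdc39, and 2 with no overlap between groups, Drc7 and Ccdc40. Drc1, a core subunit of the nexin-dynein regulatory complex, was at 9.41, 9.26 and 8.74 FPKM in knock-in and 9.54, 9.24 and 9.19 FPKM in wild-type libraries, a ratio of 0.980. Drc3, of the same complex, was at 1.79 ± 0.122 FPKM in knock-in and 1.81 ± 0.101 FPKM in wild-type libraries (SD, n = 3 each). Drc7, also of that complex, was at 0.598, 0.638 and 0.447 FPKM in knock-in and 0.792, 1.28 and 1.18 FPKM in wild-type libraries. Its groups did not overlap, and its ratio of 0.517 was the lowest among the members with no overlap after Fam183b (limma adjusted p = 0.952). Ccdc39 and Ccdc40 form the ruler together and did not behave as a pair. Ccdc39 was at 1.95 ± 0.211 FPKM in knock-in and 1.99 ± 0.103 FPKM in wild-type libraries and overlapped, and 1256 of its exon bases lie opposite Ttc14 on the other strand. Ccdc40 was at 0.533, 0.431 and 0.589 FPKM in knock-in and 0.619, 0.717 and 0.732 FPKM in wild-type libraries, with no overlap and a ratio of 0.751.

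Tektins, filaments that run along the doublet microtubules, differed from member to member. Tekt1 was at 1.06, 1.35 and 1.03 FPKM in knock-in and 1.65, 1.64 and 1.44 FPKM in wild-type libraries, with no overlap and a ratio of 0.727. Tekt2 was at 1.62, 1.25 and 1.52 FPKM in knock-in and 1.65, 1.65 and 1.99 FPKM in wild-type libraries, so that its groups did not overlap but nearly touched. Tekt4 was at 0.775 ± 0.147 FPKM in knock-in and 1.07 ± 0.216 FPKM in wild-type libraries (SD, n = 3 each) and overlapped. Tekt5, which is best known from sperm, was the tektin with the highest level and the member with a higher knock-in mean. Its level was 4.48, 5.07 and 4.604 FPKM in knock-in and 4.96, 4.40 and 4.31 FPKM in wild-type libraries, and its log2 difference was 0.04 (SE 0.07).

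The 21 Cfap members, named only for their association with cilia and flagella, made up the largest family, and the knock-in mean was lower for all 21 in the deposited scaling, for 20 with quantile normalization and for 19 with median-of-ratios scaling. Groups did not overlap for 13 of them, beside 7.21% of all genes tested that were separated with knock-in lower. Cfap52, which lies inside the doublet microtubule, was at 0.535, 0.818 and 0.709 FPKM in knock-in and 1.06, 1.00 and 1.31 FPKM in wild-type libraries, a ratio of 0.611. Cfap45, another protein of the doublet lumen, was at 0.340, 0.506 and 0.318 FPKM in knock-in and 0.641, 0.603 and 0.643 FPKM in wild-type libraries, and was named after its values were seen. Of the 5 Cfap members known to lie inside the doublet, 4 did not overlap, with Cfap126 the exception. Cfap46, Cfap54 and Cfap74 were grouped under the central pair, and none of the 3 overlapped. That grouping may be incomplete. Of the 13 Cfap members placed in neither group 7 overlapped, among them Cfap69 at a ratio of 0.957. Cfap46, named after its values were seen, was at 0.421, 0.437 and 0.406 FPKM in knock-in and 0.680, 0.585 and 0.716 FPKM in wild-type libraries, a ratio of 0.639.

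Among the other Cfap members, Cfap65, needed for sperm flagella, was at 0.856, 0.867 and 0.723 FPKM in knock-in and 1.25, 1.11 and 1.18 FPKM in wild-type libraries, a ratio of 0.691 (limma adjusted p = 0.952). Cfap44, known from algae and ciliates to tether an inner arm dynein, was at 0.555, 0.529 and 0.503 FPKM in knock-in and 0.712, 0.875 and 0.856 FPKM in wild-type libraries, a ratio of 0.649. Neither overlapped between groups. The Cfap members with the highest levels were Cfap36, Cfap20 and Cfap97. Cfap36, a binding partner of the small GTPase Arl3, was at 24.8 ± 1.21 FPKM in knock-in and 25.2 ± 1.51 FPKM in wild-type libraries, and Cfap97 at 4.07 ± 0.285 FPKM in knock-in and 4.10 ± 0.240 FPKM in wild-type libraries (SD, n = 3 each). Cfap20, known from algae to lie at the inner junction of the doublet, was at 7.34, 7.77 and 6.59 FPKM in knock-in and 8.31, 7.87 and 8.21 FPKM in wild-type libraries. It did not overlap between groups, yet its ratio was 0.890, and knock-in replicate 2 lay close to wild-type replicate 2.

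The genes given by name held the member with the largest difference. Fam183b, a gene of ciliated cells, was at 1.09, 1.90 and 1.58 FPKM in knock-in libraries and at 3.63, 3.03 and 3.45 FPKM in wild-type libraries. All knock-in libraries lay under 2 FPKM and all wild-type libraries above 3 FPKM, and the ratio was 0.452 (log2 difference -0.80, SE 0.13, 95% interval -1.10 to -0.51, limma adjusted p = 0.388). It lies on chromosome 11 at 58792797 to 58801960 (GRCm38) and shares 0 exon bases with another gene. Ak7, an adenylate kinase that buffers ATP in motile cilia, was at 1.34, 1.72 and 1.44 FPKM in knock-in and 2.40, 2.11 and 2.13 FPKM in wild-type libraries, a ratio of 0.678 (limma adjusted p = 0.864). Ccdc153 and Tmem212 are used as markers of ependymal cells. Ccdc153 was at 1.68, 3.09 and 1.98 FPKM in knock-in and 3.71, 3.06 and 4.14 FPKM in wild-type libraries, and Tmem212 at 2.56, 4.49 and 2.70 FPKM in knock-in and 4.69, 3.37 and 5.54 FPKM in wild-type libraries. For both, knock-in replicates 1 and 3 were below the wild-type libraries and knock-in replicate 2 lay among them.

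The members on either side of the threshold were as follows. Dnah10, an inner arm heavy chain, averaged 0.246 ± 0.0110 FPKM in knock-in and 0.354 ± 0.0367 FPKM in wild-type libraries, and Cfap70 averaged 0.259 ± 0.0373 FPKM in knock-in and 0.355 ± 0.0240 FPKM in wild-type libraries (SD, n = 3 each), just inside it. Dnah9, a heavy chain of the outer arm, averaged 0.210 ± 0.0295 FPKM in knock-in and 0.263 ± 0.0292 FPKM in wild-type libraries, and Cfap77 averaged 0.188 ± 0.0435 FPKM in knock-in and 0.282 ± 0.0628 FPKM in wild-type libraries, just outside it. Groups did not overlap for Dnah10 and Cfap70, which met the threshold through the wild-type libraries, and overlapped for Dnah9 and Cfap77. The knock-in mean was lower for 14 of the 17 members below the threshold, and 4 of the 17 did not overlap with knock-in lower and 1 with knock-in higher. The matching shares over all genes below the threshold were not counted, so nothing is read from these counts. Of these 17, 11 were heavy chains, among them the near-identical copies Dnah7a, Dnah7b and Dnah7c, between which reads may be split.

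Annotation placed the 48 members on 16 chromosomes, with at most 9 on any of them, so the set is no single locus. By GENCODE release M21, 18 members share exon bases with a gene on the other strand and 2 with a gene on the same strand. The strand setting of the counting is not given in the sources used here, so reads of such pairs may be mixed. Of the 29 members that share no exon base with another gene, 16 did not overlap between groups, beside 7.21% of all genes tested.

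Other genes of ependymal cells were taken from a list of 30 markers outside the families above, 24 of which reached 0.3 FPKM. The knock-in mean was lower for 23 of the 24, and for 22 with either other scaling, 8 did not overlap between groups with knock-in lower, and 0 were called in limma, 7 being lower at an unadjusted p under 0.05. Over all genes tested 7.21% were separated in that direction and 3.38% were lower at that p. Sntn, a protein of the ciliary tip, was at 0.281, 0.507 and 0.430 FPKM in knock-in and 0.759, 0.656 and 0.606 FPKM in wild-type libraries. Mia, a secreted protein used to mark ependyma, was at 0.542, 1.72 and 0.993 FPKM in knock-in and 1.75, 1.77 and 1.76 FPKM in wild-type libraries. Both were lowest in knock-in replicate 1, and Mia in knock-in replicate 2 was close to the wild-type level. Tppp3, a tubulin-binding protein that other cells also make, was at 20.6 ± 2.43 FPKM in knock-in and 22.3 ± 2.73 FPKM in wild-type libraries, and S100b, which astrocytes share, at 93.1 ± 9.06 FPKM in knock-in and 95.8 ± 6.88 FPKM in wild-type libraries (SD, n = 3 each), both overlapping.

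In the remaining axonemal lists the knock-in mean was lower for most genes. Of 12 measured proteins inside the doublet the knock-in mean was lower for 9, and 5 did not overlap, among them Spag8, at 1.20, 1.07 and 1.09 FPKM in knock-in and 1.71, 1.46 and 1.53 FPKM in wild-type libraries. Of 14 further proteins of the central pair, nexin links and spokes the knock-in mean was lower for 11 on the log2 scale. Ccdc65, at mean levels of 1.328 FPKM in knock-in and 1.329 FPKM in wild-type libraries, had a log2 difference of 0.0056. Dnajb13, a spoke protein at 0.312 ± 0.0945 FPKM in knock-in and 0.498 ± 0.0563 FPKM in wild-type libraries (SD, n = 3 each), did not overlap. These counts stand beside 7.21% of all genes separated with knock-in lower, and 0 members of either list were called.

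Genes that nonmotile cilia also need were closer to a ratio of 1. Of 38 genes of intraflagellar transport and the BBSome, a coat that carries membrane proteins in cilia, the knock-in mean was lower for 26, with a median ratio of 0.977, and 2 did not overlap with knock-in lower and 1 with knock-in higher. Over all genes tested 56.9% were lower, 7.21% were separated with knock-in lower and 3.07% with knock-in higher. The count of 26 became 21 with quantile normalization and 20 with median-of-ratios scaling. Ift20, a subunit of the transport train, was at 25.9 ± 2.40 FPKM in knock-in and 25.1 ± 0.649 FPKM in wild-type libraries. Ttc21a, of the same list, did not overlap, at 0.461 ± 0.0235 FPKM in knock-in and 0.670 ± 0.0728 FPKM in wild-type libraries. Of 16 genes of neuronal primary cilia the knock-in mean was lower for 11, with a median ratio of 0.967. In that list 2 did not overlap with knock-in lower and 0 the other way. Htr6, 1 of the 2, was at 4.69 ± 0.0811 FPKM in knock-in and 5.74 ± 0.689 FPKM in wild-type libraries. Arl3, a GTPase that unloads ciliary cargo, was at 104 ± 7.92 FPKM in knock-in and 97.9 ± 5.34 FPKM in wild-type libraries (SD, n = 3 each). Whether the motile and the nonmotile lists differ from each other was not tested.

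Markers of other cells of the ventricular wall and of the tissue around it are given for each list as the sum of its FPKM. Of the choroid plexus list 8 of 15 measured genes reached 0.3 FPKM. The knock-in mean was lower for 8 of 8, beside 56.9% of all genes tested. Folr1, Aqp1, Steap1, F5, Calml4 and Kl had knock-in means under 0.3 FPKM and met the threshold through the wild-type libraries. That count was therefore partly fixed by the filter, and Slco1a5, below the threshold, had a ratio of 1.03. The whole list summed to 7.38 to 19.9 FPKM in knock-in and 19.1 to 389 FPKM in wild-type libraries. Its defining genes were low outside wild-type replicate 2, with Folr1 at 0.171 to 0.308 FPKM in knock-in and at 0.334, 1.10 and 0.394 FPKM in wild-type replicates 1 to 3. Without wild-type replicate 2, the knock-in mean was lower for 47 of 48 members of the ciliary set, with a median log2 difference of -0.19. The part of the plexus in the levels of the remaining libraries was not tested.

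Subventricular neuroblasts and dividing cells lie beside the ependyma, and their list of 18 rows summed to 209 to 257 FPKM in knock-in and 212 to 231 FPKM in wild-type libraries. The knock-in mean was lower for 14 of the 18, and 6 did not overlap with knock-in lower, beside 56.9% and 7.21% of all genes tested. The median ratio was 0.814, and 7 were lower at an unadjusted p under 0.05 in limma, beside 3.38% of all genes tested. Tubb3 alone, at 163 to 198 FPKM in knock-in and 162 to 170 FPKM in wild-type libraries, made up most of the sums. Igfbpl1, a marker of young neurons, stood at 1.30, 1.75 and 1.12 FPKM in knock-in and 2.17, 2.02 and 2.43 FPKM in wild-type libraries. Dcx, a neuroblast marker, was at 1.88 ± 0.140 FPKM in knock-in and 1.83 ± 0.677 FPKM in wild-type libraries. Stmn2 was at 19.3 ± 3.69 FPKM in knock-in and 16.6 ± 2.60 FPKM in wild-type libraries (SD, n = 3 each). Dcx, Stmn2 and Tubb3 were among the 4 rows with a higher knock-in mean, and all overlapped between groups. The 6 rows with no overlap were Igfbpl1, Sox11, Sox4, Dlx2, Mki67 and Top2a. Ratios were 0.811 for Sox11, 0.821 for Sox4, 0.820 for Dlx2, 0.657 for Mki67 and 0.719 for Top2a. Oligodendrocyte markers summed to 2789 to 3457 FPKM in knock-in and 3436 to 3938 FPKM in wild-type libraries, lower in knock-in for 15 of 16 genes, and knock-in replicate 3 held the lowest sum. The median ratio of the oligodendrocyte markers was 0.857, at mean levels of 3.38 to 1187 FPKM. For the members of the ciliary set it was 0.745 over all 48 and 0.945 over the 12 at 3 FPKM or more. The median log2 difference, which is compressed at low levels, was -0.22 for the oligodendrocyte markers and -0.17 for the 48 members. Astrocyte markers summed to 685 to 787 FPKM in knock-in and 753 to 779 FPKM in wild-type libraries, with a median ratio of 0.974. Striatal projection neuron markers summed to 3313 to 3681 FPKM in knock-in and 3357 to 3457 FPKM in wild-type libraries. Cortical excitatory markers summed to 107, 91.0 and 55.9 FPKM in knock-in replicates 1 to 3 and to 71.3, 53.4 and 53.5 FPKM in wild-type replicates 1 to 3. Of these lists 0 genes were called. Their part in the levels of the ciliary genes was not tested, apart from the fit with the cortical covariate above.

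**Figure D4:**
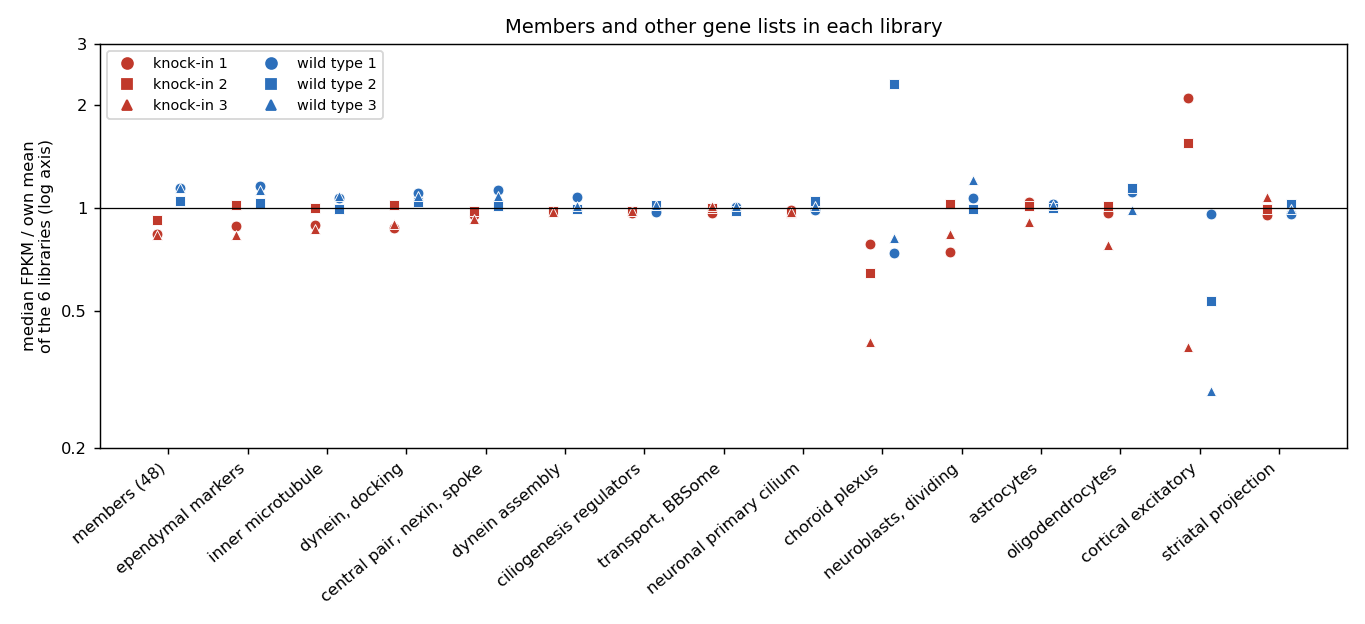
Median over each list of the FPKM divided by the gene's own mean of the 6 libraries (vertical log axis), with a marker per library, knock-in left and wild type right for each list. The 48 members lie at 0.833 to 0.925 in knock-in and 1.05 to 1.15 in wild-type libraries with no overlap, the transport and primary cilium lists lie near 1, and the plexus and cortical lists spread most between libraries.

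Leaving out any 1 library changed the extent and not the direction. The knock-in mean was lower for 43 to 47 of 48 members, 16 to 22 were lower at an unadjusted p under 0.05 in limma, and the median log2 difference ranged from -0.19 to -0.14. No member was called in any of these fits. The lowest adjusted p of a named member in any alternative was 0.139, without knock-in replicate 2.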

How the data were processed

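Bulk RNA sequencing libraries of dorsal striatum were described, 3 knock-in and 3 wild type. Per the file headers, the authors deposited FPKM, with 1 value for every gene in every library. The submitters' processing notes list the tools FastQC, HISAT2, SAMtools and StringTie, without versions. Genome build, annotation and strand setting were not given in the sources used here. Table columns were assigned through the codes that the labels give for each sample. Read counts and depth are unknown: for genes with 1 transcript, 37.1% to 41.4% of low values lay within 0.1 of a whole multiple of the best step, where 20% would without steps. FPKM of a library summed to 314146 to 335508.

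Levels were compared as log2(FPKM + 1) with limma 3.58.1 in R 4.3.3, trended and robust, two-sided, over the 17904 genes of at least 0.3 FPKM on average, with Benjamini-Hochberg adjustment. Counts of genes with a lower knock-in mean rest on the log2 difference of that model, and for members below the threshold on mean FPKM. The model was tested on simulated data. Genes named were the 8 given by name, up to 3 of each family by level and 3 by p, those beside the threshold, and in each other list 2 by level and 2 by p. The marker genes fixed for each cell type, and Rsph9, Cfap45, Cfap46, Cfap54, Cfap69, Cfap74, Cfap126 and further names given with counts or ratios, fall outside that rule. Members and lists were chosen with earlier results of these data known. Alternatives changed the pseudocount, filter, scaling, prior, covariate or replicate block, or left out a library.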

Additional observations from a re-analysis of the deposited data

How the results depend on the processing

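The 48 members kept 0 calls in each of 15 alternatives to the limma fit, and the median log2 difference stayed below 0 in all of them. It was -0.37 with a pseudocount of 0.1 and -0.22 with 0.5, against -0.17, as a smaller pseudocount compresses low levels less. At a minimum mean of 1 FPKM 26 members were tested, of which 25 were lower and 9 lower at an unadjusted p under 0.05. Deviations of same-numbered libraries from their group means correlated at -0.0077, -0.06 and 0.17, and those of differently numbered libraries at -0.17 to 0.19. With 3 libraries in each group these values cannot show whether shared replicate numbers pair the samples. With a replicate block 47 members were lower and 19 lower at an unadjusted p under 0.05, against 47 and 21 without it. Over the 6 fits that leave out a library, 43 to 47 members were lower, 6 to 13 of the 14 astrocyte markers (6 without knock-in replicate 3, 11 with all), 0 to 4 of the 11 cortical markers (4, 2 and 1 without knock-in replicate 1, knock-in replicate 2 and wild-type replicate 1) and 4 to 12 of the 17 striatal markers (12 without knock-in replicate 3, 10 without wild-type replicate 1).

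Of 526 values of 36 named members under the alternatives, 499 kept their direction. The other 27 belong to 9 members, 8 of them with ratios of 0.944 to 1.04 and Dynlrb2 at 0.886, and the cause was not tested. With quantile normalization the log2 difference was 0.0020 for Ccdc39, 0.012 for Cfap97, 0.012 for Drc3 and 0.018 for Rsph9. With median-of-ratios scaling it was 0.00076 for Cfap36, 0.011 for Cfap97, 0.0041 for Drc3 and 0.019 for Rsph9. With the cortical covariate it was 0.018 for Ccdc39, 0.032 for Cfap97 and 0.019 for Dnah1, and with a pseudocount of 0.1 it was 0.00015 for Rsph9. Without knock-in replicate 1 it was 0.021 for Cfap97, 0.042 for Dynlrb2 and 0.00099 for Rsph9. Without knock-in replicate 2 it was 0.036 for Ccdc39, 0.0054 for Cfap97 and -0.0021 for Tekt5. Without knock-in replicate 3 it was 0.0015 for Drc1, 0.023 for Drc3 and 0.098 for Rsph9. Without wild-type replicate 1 it was 0.0048 for Cfap36, 0.020 for Cfap97, 0.0036 for Drc3 and 0.089 for Rsph9. Without wild-type replicate 3 it was 0.0033 for Drc3 and 0.034 for Rsph9. Over the fits that leave out a library, these differences ranged from -0.067 to 0.036 for Ccdc39, -0.072 to 0.0048 for Cfap36, -0.055 to 0.021 for Cfap97, -0.046 to 0.0015 for Drc1, -0.042 to 0.023 for Drc3, -0.38 to 0.042 for Dynlrb2, -0.12 to 0.098 for Rsph9 and -0.0021 to 0.093 for Tekt5. Depth is unknown, so levels under 1 FPKM, which 22 members have, carry an unmeasured counting error.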
